A study of Homo sapiens with 18 samples.

Results

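The insulin-like growth factor (IGF) binding proteins IGFBP1 to IGFBP7 and the receptors IGF1R, IGF2R and INSR were described in RNA sequencing data from 16D cells, a prostate cancer line that grows under castrate conditions. These 10 genes, of 26900 gene symbols in the table, were chosen as a family from the TPM values of IGFBP3 and IGFBP5, which differed with drug and guide in these same data. The levels of those 2 genes are therefore given as a description, without a test, and tests are given only for the other 8. Every cell carried lentiviral Cas9. The guides were sgOGDHL_1 and sgOGDHL_2, directed at OGDHL, which encodes a mitochondrial enzyme similar to OGDH of the citric acid cycle, and the control sgAAVS, directed at the AAVS safe-harbour site. Cells with each guide had spent 6 weeks in 10 µM enzalutamide (Enza), an antiandrogen drug used in prostate cancer, or in DMSO vehicle, in medium with fetal bovine serum. This gave 6 groups of 3 libraries: sgOGDHL_1 in Enza and in DMSO, sgOGDHL_2 in Enza and in DMSO, and sgAAVS in Enza and in DMSO.

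IGF1 and IGF2 are secreted peptides that signal through IGF1R, a receptor tyrosine kinase closely related to the insulin receptor INSR, and from there mainly to the PI3K-AKT and MAP kinase cascades. Most IGF in extracellular fluid is held by IGF binding proteins, which keep the ligand from its receptor or release it when proteases cut them. IGF2R, the cation-independent mannose 6-phosphate receptor, carries lysosomal enzymes and takes up IGF2 for degradation. In the prostate, IGFBP3 is a known substrate of the kallikrein KLK3 (prostate-specific antigen).

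Levels are TPM, transcripts scaled by length to a fixed total per library, so different genes can be compared, but no record of sequencing depth is kept and the depth was unknown. Whether the 3 replicates of a group were separate cultures is not stated in the labels, and p-values here reflect the spread of these libraries alone, which may be technical. The luminal prostate markers KLK3 and HOXB13 reached 1 TPM. OGDHL averaged 1.03 and 0.849 TPM with sgOGDHL_1 in Enza and in DMSO and 1.74 TPM with sgOGDHL_2 in Enza, against 3.37 and 2.15 TPM with sgAAVS in Enza and in DMSO. The libraries labelled sgOGDHL_2 in DMSO went the other way, at 3.03 TPM, against 2.15 TPM with sgAAVS in DMSO (log2 change 0.35, adjusted p = 0.020 by limma across all genes with Benjamini-Hochberg adjustment, as for every adjusted p given). That call was lost without sgAAVS replicate 3 (adjusted p = 0.053), sgOGDHL_2 replicate 1 (0.054) or sgOGDHL_2 replicate 2 (0.088) in DMSO, and with a pseudocount of 0.1 (0.074). These 3 libraries also stood apart across all genes: Pearson's r with the other libraries was 0.884 to 0.922, against 0.950 to 0.998 among the other libraries, and 1407 to 1630 rows were at 0 in them, against 3042 to 4498 in the others. Of the 4 leukocyte markers, which summed to 10.2 to 11.0 TPM there and to 0.383 to 0.704 TPM elsewhere, only CD68 reached 1 TPM. CD3E and MS4A1 reached 0.0162 and 0.0404 TPM there, against at most 0.00371 and 0.00866 TPM elsewhere, and PTPRC was listed at 0 in 10 libraries and did not exceed 0.00120 TPM. The endothelial markers CDH5, KDR and PECAM1 reached 0.166, 0.0842 and 0.0074 TPM there, against at most 0.00889, 0.0243 and 0.00204 TPM elsewhere. VWF, also endothelial, had 0.167 to 0.209 TPM there and 0.0391 to 0.261 TPM elsewhere. Of the 6 fibroblast markers, only COL1A1 and LUM reached 1 TPM. COL1A1 had 7.33 to 8.63 TPM there and 2.94 to 7.4 TPM elsewhere, and LUM reached 0.00839 TPM there and 1.17 TPM elsewhere. The part of these markers in the results was not tested. Every comparison that uses these libraries rests on them. The guides compared within Enza do not use their means, but share the filter and the estimate of the spread with them. Mitochondrially encoded transcripts took 73.8%, 69.9% and 57.2% of TPM in the sgOGDHL_1 libraries in DMSO, against 53.6% to 55.4% with sgAAVS in DMSO.

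IGFBP3, the main carrier of IGFs in blood, was the family member whose level varied most. It lies on chromosome 7 (45912245 to 45921874, minus strand, GRCh38). With sgAAVS, IGFBP3 had 233, 189 and 223 TPM in Enza, against 4.11, 4.08 and 4.32 TPM in DMSO. In bulk RNA, fewer cells with the transcript and less transcript per cell cannot be told apart. With sgOGDHL_1 it had 39.1, 35.4 and 41.4 TPM in Enza, against 2.56, 3.02 and 4.22 TPM in DMSO. In both guides every Enza library lay above every DMSO library. With sgOGDHL_2, IGFBP3 had 208, 186 and 211 TPM in Enza, against 77.0, 67.7 and 59.8 TPM in the libraries labelled sgOGDHL_2 in DMSO. The DMSO libraries labelled with that guide thus already held more IGFBP3 than the Enza libraries of sgOGDHL_1.

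The ratio of mean IGFBP3 in Enza to that in DMSO was 11.8 with sgOGDHL_1, 2.96 with sgOGDHL_2 and 51.5 with sgAAVS. Ordered from high to low, the group means were 215 ± 23.2 TPM (sgAAVS in Enza), 202 ± 13.4 TPM (sgOGDHL_2 in Enza), 68.1 ± 8.60 TPM (sgOGDHL_2 in DMSO), 38.6 ± 3.00 TPM (sgOGDHL_1 in Enza), 4.17 ± 0.129 TPM (sgAAVS in DMSO) and 3.27 ± 0.859 TPM (sgOGDHL_1 in DMSO; SD, n = 3 each). Libraries of the 2 highest groups overlapped, as did those of the 2 lowest, and the other neighbours in this order did not. Within Enza, the mean with sgOGDHL_1 was 0.180 times that with sgAAVS and the mean with sgOGDHL_2 was 0.940 times it. Both guide comparisons use the same sgAAVS libraries, and the drug and guide comparisons share libraries as well, so their values are given side by side.

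IGFBP5, a secreted binding protein that also attaches to extracellular matrix, had a lower TPM than IGFBP3 in every library, and its order over guides in Enza was not that of IGFBP3. It lies on chromosome 2 (216672105 to 216695525, minus strand, GRCh38), where an exon overlaps the opposite-strand gene AC007563.2; the kit marked strand, but whether the counting used strand is not given in the sources used here. With sgAAVS, IGFBP5 had 6.91, 4.73 and 5.87 TPM in Enza, against 0.701, 0.677 and 0.856 TPM in DMSO. It had 1.80, 1.78 and 1.58 TPM in Enza with sgOGDHL_1, against 0.332, 0.426 and 0.543 TPM in DMSO. With sgOGDHL_2 it had 1.73, 1.35 and 1.45 TPM in Enza, against 1.11, 1.10 and 0.937 TPM in DMSO. All 3 sgAAVS libraries in Enza lay above every other library, and in each guide the Enza libraries lay above the DMSO libraries.

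The ratio of IGFBP5 means, Enza to DMSO, was 3.96 with sgOGDHL_1, 1.44 with sgOGDHL_2 and 7.84 with sgAAVS. Within Enza, IGFBP5 averaged 1.72 ± 0.121 TPM with sgOGDHL_1 and 1.51 ± 0.197 TPM with sgOGDHL_2, which overlapped, and 5.83 ± 1.09 TPM with sgAAVS (SD, n = 3 each). IGFBP3 with sgOGDHL_2 in Enza overlapped the sgAAVS libraries, whereas IGFBP5 with sgOGDHL_2 did not. Over the 18 libraries, which share their groups, Pearson's r between the log2(TPM + 1) values of IGFBP3 and IGFBP5 was 0.753. On that log2 scale, where differences of weakly expressed genes come out too small, the difference between Enza and DMSO with sgAAVS was 5.38 for IGFBP3 and 1.96 for IGFBP5.

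**Figure D1:**
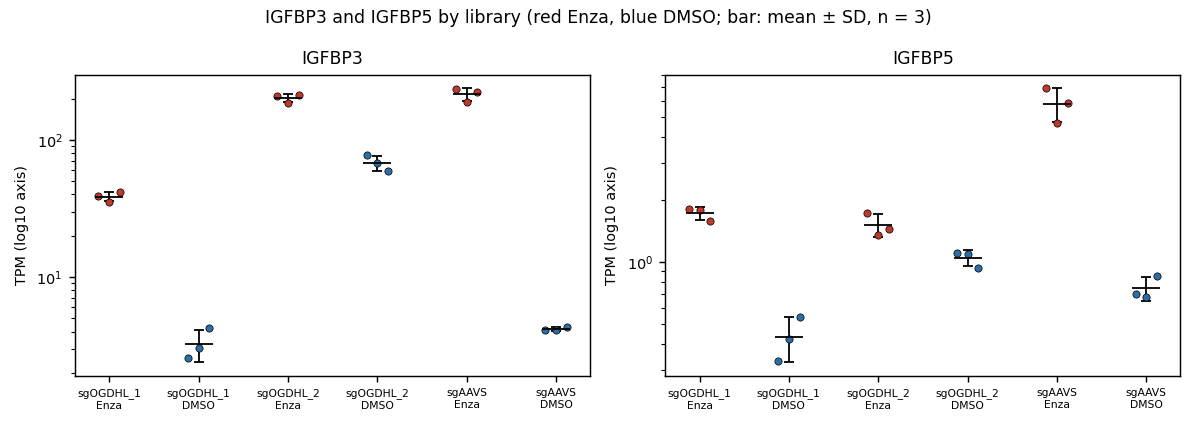
IGFBP3 (left) and IGFBP5 (right) in each library, in TPM on a log10 axis, by guide and treatment; points are libraries, bars the mean ± SD (n = 3). IGFBP3 averaged 215 TPM with sgAAVS in Enza and 202 TPM with sgOGDHL_2 in Enza, while for IGFBP5 both OGDHL guides in Enza, at 1.72 and 1.51 TPM, lay below the 5.83 TPM of sgAAVS in Enza.

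The promoters of IGFBP3, IGFBP5 and IGF1R are shown because these 3 genes had the largest ratios between Enza and DMSO with sgAAVS among the members that reached 1 TPM in any library. RefSeq promoter windows were matched for 8 of the 10 members; IGFBP1 and IGFBP7 have none here. Each line gives the 248 bases that run from 250 to 3 bases before the RefSeq transcription start, 5′ to 3′ on the gene's strand, in build GRCh38.p14. Capitals mark matches, on either strand, to GGGCGG (the SP1 box) or TATANA (resembling the core of the TATA box). GTAAACA (a FOXO core) and TGTTCT (an androgen receptor half-site) were also searched on both strands. The windows are chr7:45921275-45921522 on the minus strand for IGFBP3, chr2:216695552-216695799 on the minus strand for IGFBP5 and chr15:98648289-98648536 on the plus strand for IGF1R. The IGFBP3 window lies inside the gene span given above, which is the outer span of the gene in GENCODE. The starts of single transcripts were not compared between RefSeq and GENCODE.
IGFBP3: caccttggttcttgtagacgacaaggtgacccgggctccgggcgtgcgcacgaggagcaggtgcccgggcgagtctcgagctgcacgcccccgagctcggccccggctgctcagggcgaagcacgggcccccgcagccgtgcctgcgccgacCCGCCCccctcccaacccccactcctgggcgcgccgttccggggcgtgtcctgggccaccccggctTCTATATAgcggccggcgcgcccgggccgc
IGFBP5: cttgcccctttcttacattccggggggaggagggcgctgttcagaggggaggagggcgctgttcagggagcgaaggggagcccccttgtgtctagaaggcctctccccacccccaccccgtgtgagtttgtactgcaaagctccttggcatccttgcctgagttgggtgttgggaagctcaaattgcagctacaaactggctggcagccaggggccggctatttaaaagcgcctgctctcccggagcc
IGF1R: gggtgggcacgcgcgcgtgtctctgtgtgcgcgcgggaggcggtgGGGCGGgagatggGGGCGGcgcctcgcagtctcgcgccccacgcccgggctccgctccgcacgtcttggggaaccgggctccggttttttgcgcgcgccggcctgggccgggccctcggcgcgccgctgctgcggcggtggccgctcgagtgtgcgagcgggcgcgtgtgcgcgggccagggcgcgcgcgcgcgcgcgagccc

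The IGFBP3 window held 1 GGGCGG match, on the minus strand 98 bases before the start, and 3 overlapping TATANA matches that begin 32 and 30 bases before it. The IGF1R window held 2 GGGCGG matches, 205 and 192 bases before the start, and no TATANA. In the IGFBP5 window none of these motifs was found as written, and GTAAACA and TGTTCT were found in none of the 3 windows. Of 35116 promoter windows of the same length, 42.4% held GGGCGG, 17.6% TATANA, 12.3% TGTTCT and 2.96% GTAAACA. The windows were 75.8% (IGFBP3), 60.9% (IGFBP5) and 81.0% (IGF1R) G and C, against a median of 58.1% over all windows, and the IGF1R window held 48 CpG dinucleotides, against 8 for IGFBP5. A match is a description of letters, and the binding of a factor was not measured.

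Among the binding proteins outside that choice, IGFBP2, which binds IGF2 preferentially and is commonly expressed by prostate epithelium, was the most abundant and did not differ detectably with drug in the control guide. IGFBP2 had 12.4, 9.04 and 9.39 TPM with sgAAVS in Enza, against 10.8, 10.3 and 10.9 TPM with sgAAVS in DMSO. The log2 difference was -0.06 (95% interval -0.49 to 0.38, adjusted p = 0.89). IGFBP2 rose with Enza in sgOGDHL_1, with 11.7, 11.4 and 10.4 TPM in Enza, against 3.24, 5.47 and 9.12 TPM in DMSO (log2 change 0.90, SE 0.21, adjusted p = 0.0055). It fell with Enza in sgOGDHL_2, with 10.4, 9.42 and 10.6 TPM in Enza, against 19.2, 18.3 and 16.1 TPM in the libraries labelled sgOGDHL_2 in DMSO (-0.76, SE 0.21, adjusted p = 0.0044; -0.40, adjusted p = 0.0027, after median-of-ratios scaling).

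The 3 Enza groups lay close together for IGFBP2, at 11.2 ± 0.693 TPM with sgOGDHL_1, 10.1 ± 0.604 TPM with sgOGDHL_2 and 10.3 ± 1.85 TPM with sgAAVS. It was the DMSO groups that differed: in DMSO, IGFBP2 was lower with sgOGDHL_1 (5.94 ± 2.96 against 10.6 ± 0.343 TPM with sgAAVS; log2 change -0.83, adjusted p = 0.018; -0.42 after median-of-ratios scaling and -0.45 with mitochondrial genes removed) and higher with sgOGDHL_2 (17.9 ± 1.57 TPM; 0.69, adjusted p = 0.0082). The interactions of Enza with guide missed the threshold for IGFBP2 (0.95, adjusted p = 0.057, with sgOGDHL_1; -0.70, adjusted p = 0.062, with sgOGDHL_2) and passed it after median-of-ratios scaling (0.63, adjusted p = 0.0042; -0.39, adjusted p = 0.026). The lowest IGFBP2 value, 3.24 TPM, came from the sgOGDHL_1 DMSO library with the highest mitochondrial share, 73.8%; the part of that share in the result was not tested. Without that library the difference in DMSO was -0.52 (adjusted p = 0.12) and the Enza change with sgOGDHL_1 was 0.59. In DMSO the call was also lost without sgOGDHL_1 replicate 2 (adjusted p = 0.078), without sgAAVS replicate 1 (0.051) or 3 (0.050) and, as for the Enza change with sgOGDHL_1, in a fit of the comparison's own libraries alone (adjusted p = 0.17 each).

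The remaining binding proteins were close to the bottom of the scale. IGFBP1, a liver-type binding protein regulated by insulin and FOXO factors, did not exceed 0.146 TPM. IGFBP4, an inhibitor of IGF action cut by pappalysins, did not exceed 0.125 TPM, and IGFBP6, which prefers IGF2, did not exceed 0.121 TPM. IGFBP7, a low-affinity IGF binder often placed outside the classical family, ranged from 0.0256 to 0.0632 TPM, and its exons overlap IGFBP7-AS1 and POLR2B on the opposite strand. None of these 4 genes passed the filter of 1 TPM in 3 libraries, so they were tested only in a fit with no filter, which covered 26900 symbols.

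In that fit IGFBP1 was higher with Enza in sgAAVS cells, at 0.0961, 0.0766 and 0.146 TPM in Enza, against 0, 0.00718 and 0.0291 TPM in DMSO (log2 difference 0.13 on the log2(TPM + 1) scale, adjusted p = 0.00037). IGFBP4 had 0.125, 0.0750 and 0.0603 TPM with sgAAVS in Enza, against 0.0206, 0.0240 and 0.0216 TPM with sgAAVS in DMSO (0.09, adjusted p = 0.0012). Neither pair of groups overlapped. IGFBP6 had 0.121, 0.0376 and 0.0876 TPM with sgAAVS in Enza, against 0.0300, 0.00775 and 0.0392 TPM with sgAAVS in DMSO, with overlap (0.08, adjusted p = 0.031). The IGFBP6 call was lost without sgAAVS DMSO replicate 1 (adjusted p = 0.066) or 2 (0.13) or sgAAVS Enza replicate 1 (0.13) or 3 (0.094). IGFBP7 differed by 0.01 (adjusted p = 0.38). With sgOGDHL_2, IGFBP4 averaged 0.0664 ± 0.00899 TPM in Enza, against 0.0244 ± 0.0123 TPM in DMSO (0.06, adjusted p = 0.0075), and IGFBP6 0.0586 ± 0.0272 against 0.00858 ± 0.00912 TPM (0.07, adjusted p = 0.021). The IGFBP6 call was lost without DMSO replicate 2 (0.066) or Enza replicate 3 (0.10) of that guide.

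With sgOGDHL_1 in Enza all 3 of these genes were lower than with sgAAVS in Enza: IGFBP1 averaged 0.0145 ± 0.0151 against 0.106 ± 0.0358 TPM (adjusted p = 0.0012), IGFBP4 0.0279 ± 0.00376 against 0.0867 ± 0.0339 TPM (adjusted p = 0.0058) and IGFBP6 0.0172 ± 0.00394 against 0.0821 ± 0.0420 TPM (adjusted p = 0.029). None of the 3 calls held with the replicate number as a block in a fit of those libraries alone, a setting chosen after the data were seen (adjusted p = 0.12, 0.18 and 0.18), and the IGFBP6 call was lost without any of 5 of these 6 libraries (adjusted p = 0.072 to 0.12). IGFBP1, IGFBP4 and IGFBP6 thus had their highest group mean in sgAAVS cells in Enza, as did IGFBP3 and IGFBP5, but for IGFBP3, IGFBP4 and IGFBP6 those libraries overlapped the next group, sgOGDHL_2 in Enza. At these levels, with depth unknown, how many reads stand behind a value cannot be given.

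**Figure D2:**
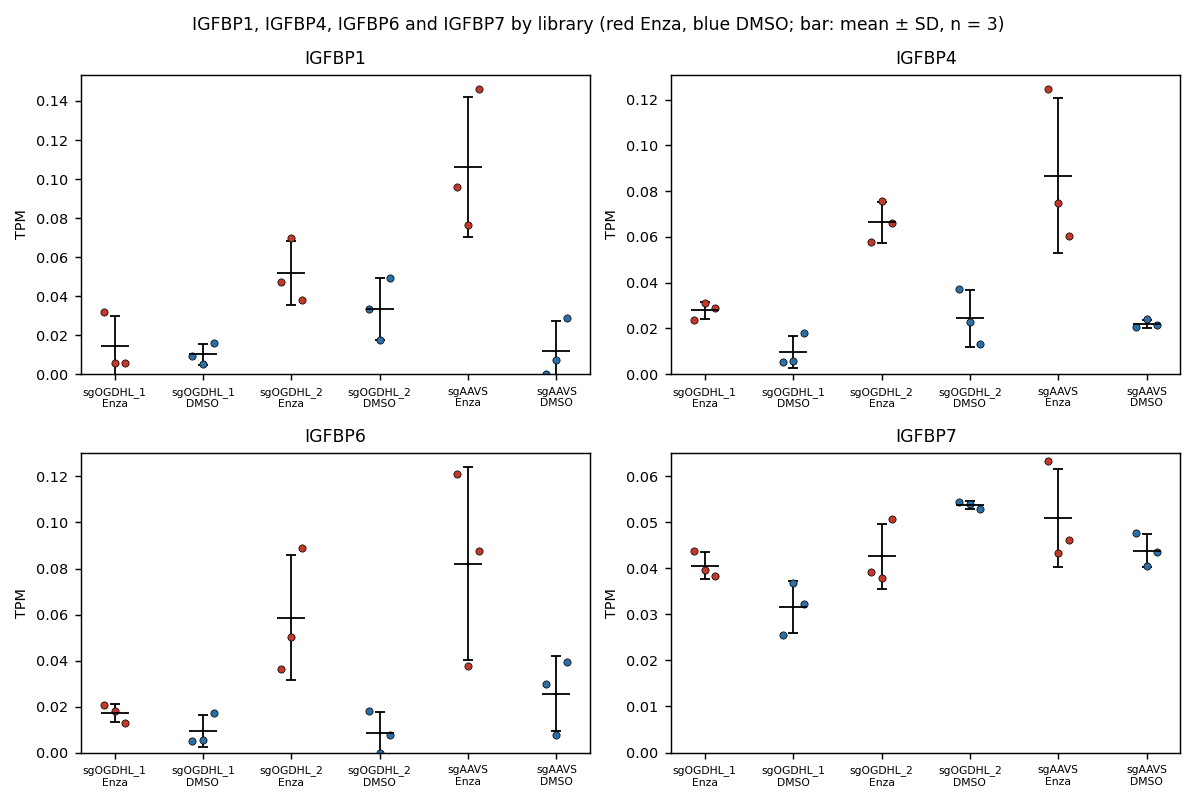
IGFBP1, IGFBP4, IGFBP6 and IGFBP7 in each library, in TPM on linear axes from 0, by guide and treatment; points are libraries, bars the mean ± SD (n = 3). The sgAAVS Enza group has the highest mean for IGFBP1 (0.106 TPM), IGFBP4 (0.0867 TPM) and IGFBP6 (0.0821 TPM), while IGFBP7 stays between 0.0256 and 0.0632 TPM.

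The summed level of the 7 binding proteins followed IGFBP3. It was 231 ± 25.7 TPM with sgAAVS in Enza, of which IGFBP3 made up 92.2% to 93.5%, against 15.7 ± 0.553 TPM with sgAAVS in DMSO, of which IGFBP2 made up 67.2% to 68.7%. With sgOGDHL_1 the sum was 51.6 ± 2.55 TPM in Enza, against 9.70 ± 3.94 TPM in DMSO. With sgOGDHL_2 it was 214 ± 14.1 TPM in Enza, against 87.2 ± 10.2 TPM in DMSO (SD, n = 3 each). IGFBP2 was therefore the leading binding protein in sgAAVS and sgOGDHL_1 cells in DMSO, and IGFBP3 was in the other 4 groups.

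Among the receptors, IGF1R transcript fell with Enza in sgAAVS and sgOGDHL_2 cells, and was higher with sgOGDHL_1 than with sgAAVS in Enza. With sgAAVS, IGF1R had 0.0764, 0.0456 and 0.0655 TPM in Enza, against 0.539, 0.546 and 0.528 TPM in DMSO. With sgOGDHL_2 it had 0.0529, 0.0440 and 0.0489 TPM in Enza, against 0.984, 1.05 and 0.851 TPM in the libraries labelled sgOGDHL_2 in DMSO. With sgOGDHL_1 it had 0.419, 0.396 and 0.380 TPM in Enza, against 0.304, 0.365 and 0.573 TPM in DMSO. The Enza and DMSO libraries of sgAAVS did not overlap, nor did those of sgOGDHL_2, whereas those of sgOGDHL_1 did.

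Only 1 of the 18 libraries reached 1 TPM of IGF1R, so IGF1R too was tested in the fit with no filter. Its mean in DMSO was 8.61 times that in Enza with sgAAVS (log2 change -0.53, SE 0.05, adjusted p = 3.9e-06) and 19.8 times with sgOGDHL_2 (-0.90, SE 0.05, adjusted p = 3.7e-09). With sgOGDHL_1 the log2 difference was -0.01 (95% interval -0.12 to 0.10, adjusted p = 0.94); the median of all genes moved by 0.23 in that comparison, and after median-of-ratios scaling the IGF1R difference was -0.11 (adjusted p = 1.9e-05). In Enza, IGF1R was higher with sgOGDHL_1 than with sgAAVS (0.398 ± 0.0192 against 0.0625 ± 0.0156 TPM; 0.40, SE 0.05, adjusted p = 0.00020). The test of the difference itself, the interaction of Enza with sgOGDHL_1, was 0.52 (adjusted p = 0.00075), and that with sgOGDHL_2 was -0.37 (adjusted p = 0.0012). In DMSO, IGF1R was higher in the libraries labelled sgOGDHL_2 than with sgAAVS (0.35, adjusted p = 6.3e-05). With mitochondrial genes removed, which raises the TPM of all other genes, these IGF1R differences had the same sign and were larger (-1.04 for Enza with sgAAVS, 0.90 for sgOGDHL_1 in Enza).

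INSR, the insulin receptor, stayed within a narrower range. It had 1.02, 0.709 and 0.849 TPM with sgAAVS in Enza, against 0.965, 0.961 and 0.945 TPM with sgAAVS in DMSO, with overlap (log2 difference -0.08, 95% interval -0.25 to 0.10, adjusted p = 0.59). With sgOGDHL_1 it averaged 0.685 ± 0.00941 TPM in Enza, against 0.690 ± 0.231 TPM in DMSO (0.00, adjusted p = 0.97; -0.13, adjusted p = 0.00064, after median-of-ratios scaling). With sgOGDHL_2, INSR had 0.891, 0.731 and 0.812 TPM in Enza, against 1.27, 1.29 and 1.06 TPM in DMSO. All 3 libraries labelled sgOGDHL_2 in DMSO and 1 other reached 1 TPM, so INSR passed the filter through the group where it was high, and the filtered fit is no test of comparisons with that group. In the fit with no filter INSR fell with Enza in sgOGDHL_2 cells (-0.28, adjusted p = 0.010), where the median change of the genes that passed the filter was -0.30; after median-of-ratios scaling the INSR difference was -0.09. In DMSO it was lower with sgOGDHL_1 than with sgAAVS (0.690 ± 0.231 against 0.957 ± 0.0108 TPM; -0.22, adjusted p = 0.035). With sgOGDHL_2 in DMSO it averaged 1.21 ± 0.130 TPM, which did not pass against sgAAVS with no filter (0.17, adjusted p = 0.097).

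IGF2R was the most abundant of the receptors in every library. With sgAAVS it had 7.80, 5.22 and 6.58 TPM in Enza, against 5.30, 5.55 and 5.34 TPM in DMSO, with overlap (log2 difference 0.22, 95% interval -0.11 to 0.56, adjusted p = 0.37); it passed after median-of-ratios scaling (0.27, adjusted p = 0.00086). IGF2R fell with Enza in sgOGDHL_2 cells, at 7.15, 5.98 and 6.76 TPM in Enza, against 13.1, 14.5 and 10.8 TPM in DMSO (-0.85, SE 0.16, adjusted p = 0.00019; -0.49 after median-of-ratios scaling). That contrast rests on high DMSO values: in DMSO, IGF2R was higher with sgOGDHL_2 (12.8 ± 1.88 TPM) than with sgAAVS (5.40 ± 0.136 TPM; 1.10, SE 0.16, adjusted p = 1.2e-05). The interaction of Enza with sgOGDHL_2 was -1.07 for IGF2R (SE 0.22, adjusted p = 0.00094).

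With sgOGDHL_1, IGF2R had 4.91, 4.80 and 5.07 TPM in Enza, against 2.92, 3.58 and 5.42 TPM in DMSO, with overlap (0.28, adjusted p = 0.16; 0.48, adjusted p = 0.0029, without DMSO replicate 3). In DMSO it was lower with sgOGDHL_1 than with sgAAVS (3.97 ± 1.29 against 5.40 ± 0.136 TPM; -0.39, adjusted p = 0.043). The IGF2R and INSR calls for sgOGDHL_1 in DMSO were lost after median-of-ratios scaling (IGF2R 0.00, adjusted p = 0.97; INSR -0.02, adjusted p = 0.59). The median difference of all tested genes in that comparison was -0.32, and 0.01 after the scaling. Both calls were also lost without any of 5 of the 6 libraries compared (IGF2R adjusted p = 0.081 to 0.24, INSR 0.070 to 0.22), and they held without sgOGDHL_1 DMSO replicate 3 (IGF2R -0.59, adjusted p = 0.00044; INSR -0.33, adjusted p = 0.00048). The calls over all genes moved in the same fits: without those 5 libraries 8, 3829, 14, 14 and 10 genes were called (sgAAVS replicates 1, 2 and 3, sgOGDHL_1 replicates 1 and 2), against 7757 with all libraries and 11245 without sgOGDHL_1 replicate 3. In Enza, IGF2R averaged 4.93 ± 0.136 TPM with sgOGDHL_1 against 6.53 ± 1.29 TPM with sgAAVS and the libraries did not overlap; this did not pass the test (-0.33, 95% interval -0.67 to 0.00, adjusted p = 0.28). It passed with the replicate number as a block in a fit of those libraries alone, chosen after the data were seen (adjusted p = 0.026), and after median-of-ratios scaling (-0.25, adjusted p = 0.0025).

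**Figure D3:**
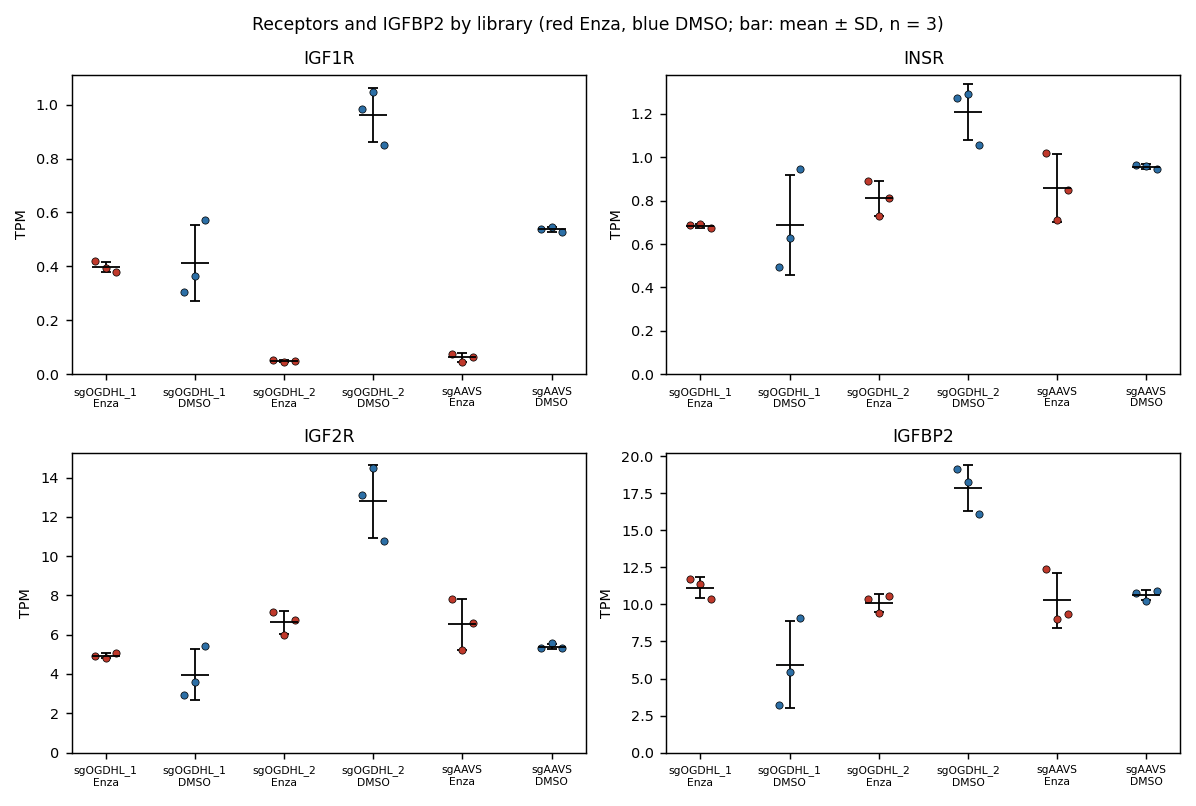
IGF1R, INSR, IGF2R and IGFBP2 in each library, in TPM on linear axes from 0, by guide and treatment; points are libraries, bars the mean ± SD (n = 3). IGF1R is near the bottom with sgAAVS and sgOGDHL_2 in Enza (0.0625 and 0.0486 TPM) but not with sgOGDHL_1 in Enza (0.398 TPM), and the libraries labelled sgOGDHL_2 in DMSO are highest for all 4 genes.

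Counted over the family, 5 of the 10 members passed the filter, of which IGFBP2, IGF2R and INSR lay outside the choice. With sgAAVS, 0 of these 3 were called for Enza against DMSO, where 20.8% of all tested genes were called; at an unadjusted p under 0.05 limma also gave 0 of 3. With sgOGDHL_1, 1 of 3 was called for Enza (29.9% of all genes), and with sgOGDHL_2 all 3 were, each lower, where 59.5% of all genes were called and 48.3% were lower. INSR counts among the 3 only through the DMSO libraries of that guide, so that count supports nothing. In Enza, 0 of 3 were called for sgOGDHL_1 (7.07% of genes) and 0 for sgOGDHL_2 (1.25%), with 0 of 3 at an unadjusted p under 0.05 in each. In DMSO, 3 were called for sgOGDHL_1, all lower (57.8% of genes called, 57.5% lower; 0.0596% to 28.5% without any of the 5 libraries named above, and 0 of 13416 genes in a fit of these 6 libraries alone, where 3588 had an unadjusted p under 0.05 by limma), and 2 for sgOGDHL_2, both higher (59.0% called, 41.0% higher). The interactions called 0 of 3 with sgOGDHL_1 (6.95% of genes; 1 member at an unadjusted p under 0.05) and 1 with sgOGDHL_2 (43.6%). Without sgOGDHL_1 DMSO replicate 3 the share of genes called for that first interaction was 65.5%, without sgAAVS Enza replicate 1 it was 14.7%, and without any other single library 3.01% to 6.52%. For Enza with sgOGDHL_1 the share was 74.0% without sgOGDHL_1 DMSO replicate 3 and 11.1% to 18.7% without any other library of that comparison. Without sgOGDHL_1 DMSO replicate 3, which shares only the estimate of the spread with them, the shares were also 37.2% for Enza with sgAAVS, 17.7% for sgOGDHL_1 in Enza and 5.04% for sgOGDHL_2 in Enza. With 3 members tested, nothing particular to the family is read from these shares. The median change of all tested genes was -0.30 for Enza with sgOGDHL_2 and 0.18 for sgOGDHL_2 in DMSO.

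In the fit with no filter, 4 of the 8 members outside the choice were called for Enza with sgAAVS (20.8% of 26900 symbols), 6 with sgOGDHL_2 (56.4%) and 1 with sgOGDHL_1 (18.8%). For sgOGDHL_1 against sgAAVS in Enza it called 4 of 8 (8.77%), the receptor IGF1R higher and IGFBP1, IGFBP4 and IGFBP6 lower, and for sgOGDHL_2 in Enza it called 0 of 8 (2.43%; 1, IGFBP1, at an unadjusted p under 0.05). In DMSO it called 1 of 8 for sgOGDHL_1 (22.6%) and 3 for sgOGDHL_2 (55.7%). For the interactions it called 2 with sgOGDHL_1 (5.91%) and 4 with sgOGDHL_2 (42.4%).

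**Figure D4:**
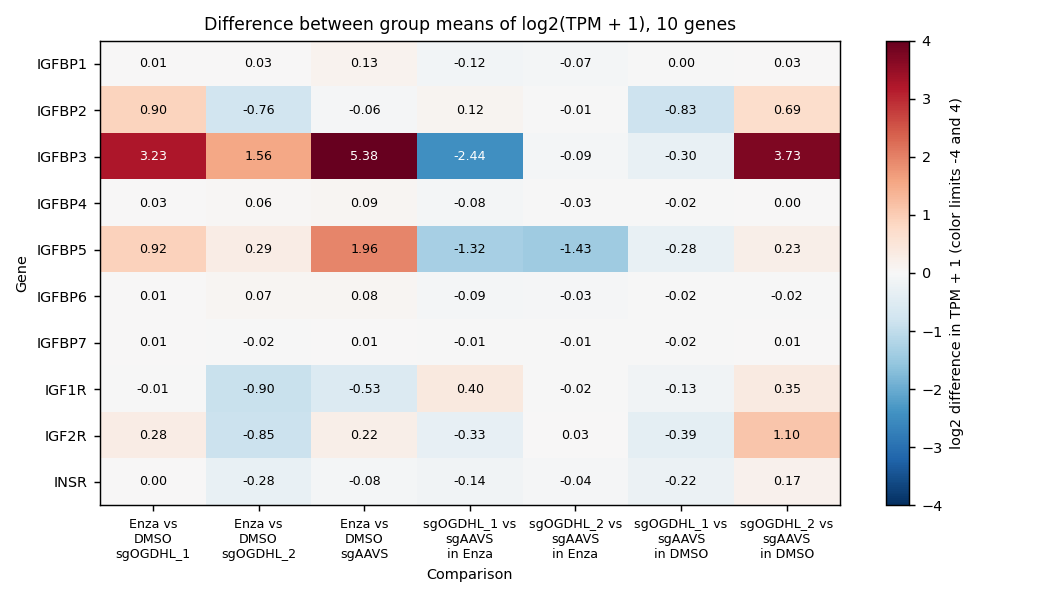
Difference between group means of log2(TPM + 1) for each of the 10 genes (rows) in 7 comparisons (columns), first group less second; red is higher and blue lower in the group named first. IGFBP3 and IGFBP5 were 5.38 and 1.96 higher with Enza in sgAAVS cells and differed by -2.44 and -1.32 between sgOGDHL_1 and sgAAVS in Enza, while the other binding proteins stayed within 0.90 of 0.

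The rest of the pathway was followed through lists of ligands and binding-protein proteases, of receptor signalling and of other proteins with an IGFBP-type domain. IGF1 did not pass the filter. IGF2 had 20.2, 19.4 and 19.2 TPM in the libraries labelled sgOGDHL_2 in DMSO, against 0.291, 0.345 and 0.306 TPM with sgAAVS in DMSO, and it did not exceed 0.345 TPM in any other group. It passed the filter through those 3 libraries alone, so no test of it is given. IGF2 exons overlap the same-strand INS-IGF2 gene, so the level is uncertain. The libraries with the most IGF2 are those with the highest IGF2R, IGF1R and IGFBP2.

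Of the 9 tested ligand, protease and regulator genes of 16, 1 rose and 2 fell with Enza in sgAAVS cells (20.8% of all tested genes were called; median change -0.07, against -0.05 for all tested genes). KLK3 had 67.7, 53.5 and 54.5 TPM with sgAAVS in Enza, against 373, 379 and 385 TPM in DMSO (-2.68, adjusted p = 4.4e-09), and the related kallikrein KLK2 averaged 8.44 ± 0.580 TPM in Enza, against 35.0 ± 0.866 TPM in DMSO (-1.93, adjusted p = 1.7e-07). HTRA1, a secreted serine protease that can cut IGF binding proteins, rose to 2.58 ± 0.447 TPM in Enza, against 1.64 ± 0.0236 TPM in DMSO (0.43, adjusted p = 0.0090). With sgOGDHL_1, KLK3 went the other way: it had 888, 843 and 772 TPM in Enza, against 215, 277 and 450 TPM in DMSO (1.47, adjusted p = 2.3e-05). KLK3 was taken as a check of the drug, and with this guide alone it did not fall with Enza. The label of these Enza libraries could not be checked further, and every result for sgOGDHL_1 in Enza rests on them. In the sgOGDHL_1 libraries IGFBP3 was higher in Enza, while KLK2 averaged 17.9 ± 0.779 TPM in Enza, against 22.2 ± 8.99 TPM in DMSO, with overlap. With sgOGDHL_2, KLK3 fell with Enza (106 ± 3.52 against 299 ± 29.5 TPM, log2 change -1.48, adjusted p = 2.8e-06), while IGFBP3 was higher in Enza.

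In Enza, KLK3 was higher with sgOGDHL_1 than with sgAAVS (834 ± 58.4 against 58.6 ± 7.92 TPM; 3.81, adjusted p = 2.1e-10), where IGFBP3 and IGFBP5 were lower. KLK2 was higher there as well (17.9 ± 0.779 against 8.44 ± 0.580 TPM; 1.00, adjusted p = 0.0012), and STC1, a stanniocalcin that inhibits pappalysin proteases, was lower (1.30 ± 0.0967 against 2.48 ± 0.530 TPM; -0.59, adjusted p = 0.013). The STC1 call was lost without sgAAVS Enza replicate 1 (adjusted p = 0.089) or sgOGDHL_1 Enza replicate 2 or 3 (0.058 each). LRP1, an endocytic receptor reported to bind IGFBP3, was also lower (-0.51, adjusted p = 0.041), a call lost without any of 5 of the 6 libraries compared (adjusted p = 0.10 to 0.20) and held without sgAAVS Enza replicate 2 (0.025). Of the libraries outside the comparison, it was lost without any sgAAVS DMSO library (0.057), sgOGDHL_1 DMSO replicate 2 (0.053), sgOGDHL_2 DMSO replicate 1 (0.052) or sgOGDHL_2 Enza replicate 1 (0.052) or 3 (0.056). In all, 4 of these 9 genes were called, 2 in each direction (7.07% of all genes; median change -0.19, against -0.06 for all genes). With sgOGDHL_2 in Enza, 1 of the 9 was called (1.25% of all genes). This was KLK3, higher than with sgAAVS at 106 ± 3.52 TPM (0.85, adjusted p = 0.03), where IGFBP3 overlapped the sgAAVS libraries. The KLK3 call was lost without sgAAVS Enza replicate 2 (adjusted p = 0.082) or 3 (0.17) or any sgOGDHL_2 Enza library (0.099 to 0.13). In the libraries labelled sgOGDHL_2 in DMSO, LRP1 averaged 13.3 ± 2.37 TPM, against 1.45 ± 0.0439 TPM with sgAAVS (2.53, adjusted p = 6.1e-11), and the lysosomal protease CTSD, carried by mannose 6-phosphate receptors, 192 ± 21.4 against 45.7 ± 1.28 TPM (2.04, adjusted p = 2.0e-06).

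Of the 20 tested signalling genes of 25, 4 rose and 6 fell with Enza in sgAAVS cells (20.8% of all genes were called; median change -0.12, against -0.05 for all genes). PIK3R1, the p85α regulatory subunit of PI3K, had 15.7, 11.4 and 13.4 TPM in Enza, against 3.54, 3.63 and 3.27 TPM in DMSO (1.69, adjusted p = 3.1e-09), and the transcription factor FOXO3 rose too (9.65 ± 1.70 against 4.38 ± 0.0964 TPM; 0.97, adjusted p = 3.2e-05). IRS1, the docking protein that links IGF1R and INSR to PI3K, averaged 0.245 ± 0.0356 TPM in Enza, against 1.18 ± 0.0165 TPM in DMSO (log2 difference -0.81). Only DMSO libraries reached 1 TPM of IRS1. It is counted among the 6 that fell but passed the filter through the groups where it was high, so no test of it is given. SOCS2, a feedback inhibitor of growth hormone signalling, fell (1.01 ± 0.141 against 3.76 ± 0.290 TPM; -1.25, adjusted p = 1.7e-07), as did EIF4EBP1, a translation inhibitor controlled by mTOR (6.42 ± 1.16 against 14.5 ± 0.263 TPM; -1.08, adjusted p = 0.00020).

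PIK3R1 and SOCS2 also passed in the same direction with Enza in both OGDHL guides: the log2 changes with sgOGDHL_1 and sgOGDHL_2 were 1.17 and 1.13 for PIK3R1 (adjusted p = 8.9e-07 and 1.6e-07) and -0.91 and -1.05 for SOCS2 (1.9e-05 and 3.9e-07). The log2 differences of IRS1, given without a test, were -0.50 and -0.87. FOXO3 rose with sgOGDHL_1 (0.68, adjusted p = 0.0019) but was not called with sgOGDHL_2 (-0.13, adjusted p = 0.42). FOXO3 already averaged 10.3 ± 0.867 TPM in the libraries labelled sgOGDHL_2 in DMSO, against 9.31 ± 0.778 TPM with that guide in Enza. EIF4EBP1 was not called with sgOGDHL_1 (0.04, adjusted p = 0.88) and rose with sgOGDHL_2 (1.02, adjusted p = 0.00010). That rise rests on low DMSO values, as EIF4EBP1 averaged 2.36 ± 0.254 TPM in the libraries labelled sgOGDHL_2 in DMSO. Within Enza it averaged 5.79 ± 0.518 TPM with sgOGDHL_2 and 6.42 ± 1.16 TPM with sgAAVS. In Enza, 0 of the 20 signalling genes rose and 3 fell with sgOGDHL_1 relative to sgAAVS: the adaptor GRB10 (3.49 ± 0.209 against 6.32 ± 0.824 TPM; -0.70, adjusted p = 0.0053), PIK3R1 (7.92 ± 0.280 against 13.5 ± 2.12 TPM; -0.69, adjusted p = 0.00066) and FOXO3 (5.78 ± 0.221 against 9.65 ± 1.70 TPM; -0.64, adjusted p = 0.0059). Over all genes 7.07% were called, and the median change was -0.11 for the 20 genes, against -0.06 for all genes. With the replicate number as a block in those libraries 5 were called, 1 higher and 4 lower, where 21.9% of all genes were called. With sgOGDHL_2 in Enza 0 of the 20 were called, and 3 at an unadjusted p under 0.05.

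**Figure D5:**
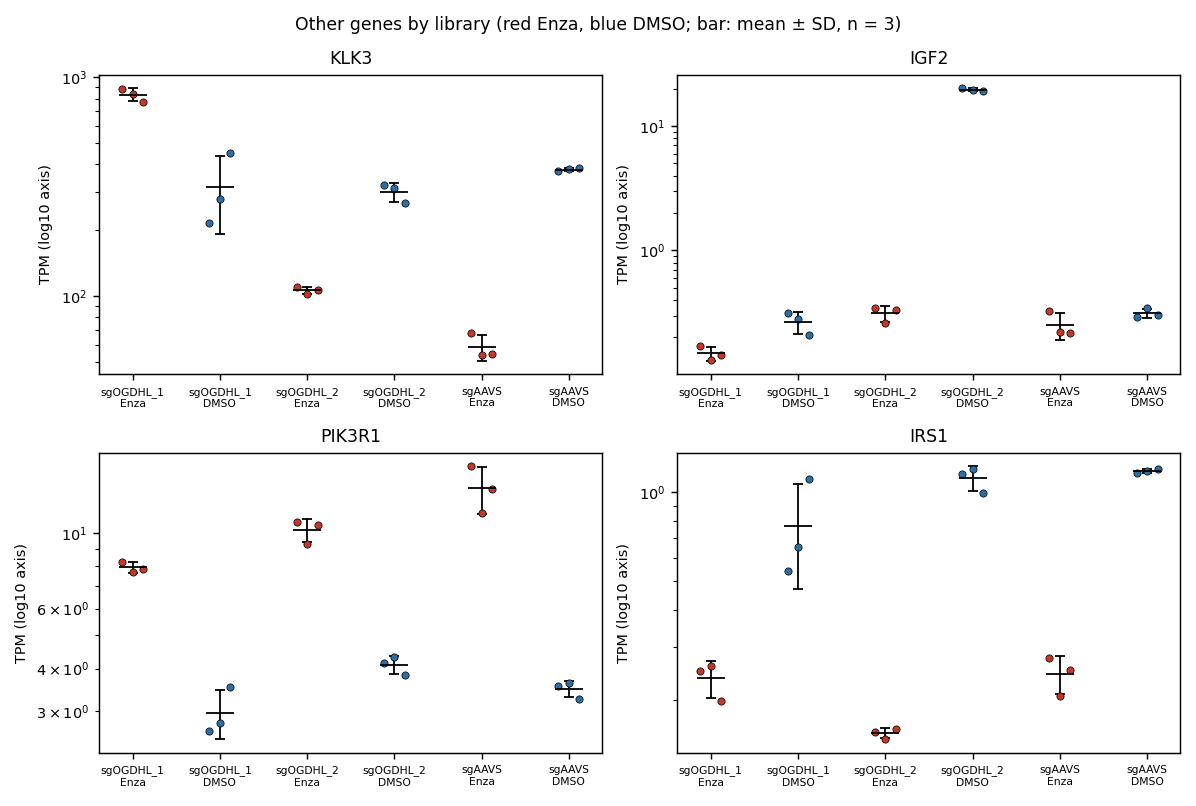
KLK3, IGF2, PIK3R1 and IRS1 in each library, in TPM on log10 axes, by guide and treatment; points are libraries, bars the mean ± SD (n = 3). KLK3 is highest with sgOGDHL_1 in Enza (834 TPM), IGF2 stands at 19.6 TPM only in the libraries labelled sgOGDHL_2 in DMSO, and PIK3R1 is higher and IRS1 lower in Enza with every guide.

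Of the other proteins with an IGFBP-type domain, 4 of 13 were tested, and 3 rose with Enza in sgAAVS cells (20.8% of all genes were called; median change 0.44, against -0.05 for all genes): HTRA1, CCN1 and CCN3. CCN3, a matricellular protein, averaged 2.82 ± 0.574 TPM in Enza, against 0.0408 ± 0.0135 TPM in DMSO (log2 difference 1.86). No sgAAVS or sgOGDHL_1 library in DMSO reached 1 TPM of CCN3. It is counted among the 3 that rose but passed the filter through groups where it was high, so no test of it is given for this comparison. CCN1, also matricellular, averaged 6.09 ± 0.872 against 4.20 ± 0.0342 TPM (0.44, adjusted p = 0.024), a call lost without sgAAVS Enza replicate 1 (adjusted p = 0.098) or any sgAAVS DMSO library (0.068 to 0.073). In Enza CCN3 was lower with sgOGDHL_1 than with sgAAVS (1.69 ± 0.174 against 2.82 ± 0.574 TPM; -0.49, adjusted p = 0.0013), 1 of these 4 genes (7.07% of all genes). With the replicate number as a block in those libraries, 2 of the 4 were called (21.9% of all genes). With sgOGDHL_2 in Enza CCN3 was instead higher than with sgAAVS, at 3.92 ± 0.295 TPM with no overlap, 1 of the 4 called (1.25% of all genes). That call was lost without sgAAVS Enza replicate 2 (adjusted p = 0.12) or 3 (0.21) or any sgOGDHL_2 Enza library (0.072 to 0.21). It was also lost without several libraries outside the comparison (0.055 to 0.078). None of the 3 IGF2 mRNA-binding proteins passed the filter.

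The genes whose pattern over the 18 libraries was most like that of IGFBP3, by Pearson's r of log2(TPM + 1) among 7713 tested genes with at least 1 group mean of 5 TPM, were AMIGO2 (0.986), PCDHB14 (0.984), TMEM144 (0.982), STBD1 (0.982) and TMEM59L (0.980). STBD1, a glycogen-binding protein, averaged 47.9 TPM with sgOGDHL_1 in Enza, 119 TPM with sgOGDHL_2 in Enza, 102 TPM with sgAAVS in Enza and 15.0 TPM with sgAAVS in DMSO. The genes most like IGFBP5 were ADCYAP1 (0.965), OPRK1 (0.945), EFNB2 (0.913), FOXQ1 (0.900) and ATP2B1 (0.897). ADCYAP1, which encodes the neuropeptide PACAP, averaged 0.814 TPM with sgOGDHL_1 in Enza, 0.307 TPM with sgOGDHL_2 in Enza, 6.07 TPM with sgAAVS in Enza and 0.00520 TPM with sgAAVS in DMSO. The points share their groups, and these are descriptions with no test.

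IGFBP3 has a family member as its neighbour, and so does IGFBP5. IGFBP1 and IGFBP3 lie 18576 bases apart on chromosome 7, and IGFBP2 and IGFBP5 lie 7668 bases apart on chromosome 2, in each case on opposite strands. Of the first pair both had their highest mean in sgAAVS cells in Enza, at 0.106 TPM for IGFBP1 and 215 TPM for IGFBP3. Of the second pair, IGFBP5 averaged 5.83 TPM with sgAAVS in Enza against 0.745 TPM with sgAAVS in DMSO, while IGFBP2 averaged 10.3 TPM in Enza against 10.6 TPM in DMSO.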

How the data were processed

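RNA of 18 libraries, 6 groups of 3, was sequenced as paired ends after a stranded mRNA kit, per the labels' protocols. The submitters' processing notes name STAR and GRCh38; which tool counted reads, and on which annotation, is not given in the sources used here. What the authors deposited is 1 table of TPM, not counts, so depth per library was unknown and no counting interval is given. The TPM fit used here is limma rather than a count model.

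Rows without a gene name (10345 of 37347, 4.24% to 9.68% of TPM) and 69 rows of 3 symbols with 5 or more rows were left out, and 32 repeated symbols were summed. Values were fitted as log2(TPM + 1), which understates changes of low genes, with limma 3.58.1 in R 4.3.3 (trended prior, 12 residual degrees of freedom) over the 13416 genes at 1 TPM or more in 3 or more libraries. P-values were adjusted by Benjamini-Hochberg over all tested genes, and a call is an adjusted p under 0.05. Groups came from the sample titles. The scripts were tested on simulated data. Gene positions are from GENCODE release 29 and promoter sequences from RefSeq.

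Alternatives were a pseudocount of 0.1, no filter, median-of-ratios scaling, removal of mitochondrially encoded genes, the comparison's own libraries alone, the replicate number as a block, and each library left out. The labels do not say that replicate numbers were paired between groups. Correlations of same-numbered libraries' deviations from their group means were all over 0.1 only for sgOGDHL_1 with sgAAVS in Enza. They were weak there, at 0.254, 0.109 and 0.204, and do not establish a pairing. The members and gene lists were chosen with earlier results of these data known. The named genes were all 10 members, up to 5 called genes per list for Enza with sgAAVS (3 in the other comparisons) in order of change, and the 5 genes most like IGFBP3 and IGFBP5.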

Additional observations from a re-analysis of the deposited data

Results flagged for a closer look

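The effect of Enza differed between an OGDHL guide and sgAAVS, by the interaction test, for the following members. In the fit with no filter, the interaction with sgOGDHL_1 was 0.52 for IGF1R (adjusted p = 0.00075) and -0.12 for IGFBP1 (adjusted p = 0.025), by limma. IGF1R differed by -0.01 between Enza and DMSO with sgOGDHL_1 and by -0.53 with sgAAVS. The interaction with sgOGDHL_2 was -1.07 for IGF2R (adjusted p = 0.00094) in the filtered fit, and -0.37 for IGF1R (adjusted p = 0.0012), -0.10 for IGFBP1 (adjusted p = 0.011) and -0.0251 for IGFBP7 (adjusted p = 0.047) with no filter. The sgOGDHL_2 values use the DMSO libraries in which OGDHL was higher than with sgAAVS and which stood apart across all genes. The sgOGDHL_1 values use the Enza libraries in which KLK3, the check of the drug, was higher than in DMSO.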

How the results depend on the processing

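With a pseudocount of 0.1 the members called stayed at the main count in all 9 comparisons, while the IGFBP3 and IGFBP5 differences for Enza with sgAAVS were 5.65 and 2.80 (5.66 and 2.54 with mitochondrial genes removed, 5.32 to 5.47 and 1.85 to 2.08 with 1 library left out). Changes in the members called, of 3 tested (8 with no filter), included the following. For Enza with sgAAVS 0 became 4 with no filter, 1 with median-of-ratios scaling and 1 with mitochondrial genes removed (IGF2R both times). For Enza with sgOGDHL_1, 1 became 2 with either scaling and 0 in its own libraries, and for Enza with sgOGDHL_2, 3 became 6 with no filter. For sgOGDHL_1 in Enza, 0 became 4 with no filter, 2 with either scaling and 1 with its own libraries and the replicate block, an alternative chosen after seeing the data. For sgOGDHL_1 in DMSO, 3 became 1 with no filter, 1 with either scaling and 0 in its own libraries. For sgOGDHL_2 in DMSO, 2 became 3 with no filter. For the interaction with sgOGDHL_1, 0 became 2 with no filter and with either scaling. For that with sgOGDHL_2, 1 became 4 with no filter, 2 with median-of-ratios scaling, 3 with mitochondrial genes removed and 2 in its own libraries. With 1 library left out the counts were 0 to 0 (Enza with sgAAVS), 1 to 2 (Enza with sgOGDHL_1), 3 to 3 (Enza with sgOGDHL_2), 0 to 0 (each guide in Enza), 0 to 3 and 2 to 3 (sgOGDHL_1 and sgOGDHL_2 in DMSO), and 0 to 1 and 1 to 2 (interactions).

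Of the lists, for Enza with sgAAVS the ligand and protease count of 3 became 7 with no filter, 6 with either scaling and 5 in its own libraries (3 to 5 with 1 library left out), the signalling count of 10 became 16 with median-of-ratios scaling and 17 with mitochondrial genes removed (8 to 14), and the domain count of 3 became 6 with no filter (2 to 3). For sgOGDHL_1 in Enza the ligand count of 4 became 7 with the block in its own libraries (2 to 5), the signalling count of 3 became 10 with either scaling and 5 with that block (3 to 4), and the domain count of 1 became 2 with no filter, in its own libraries and with that block, and 3 with either scaling (1 to 2).

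Some differences changed sign, and the cause was not tested. IGFBP2 for Enza with sgAAVS was 0.0347 with mitochondrial genes removed and -0.19 to 0.0210 with 1 library left out (0.0210 without sgAAVS Enza replicate 2). INSR for Enza with sgOGDHL_1 was -0.13 with median-of-ratios scaling, -0.18 with mitochondrial genes removed and -0.0788 to 0.11 with 1 library left out; IGF1R there was -0.0677 to 0.0674. IGF2R for sgOGDHL_1 in DMSO was 0.00184 with mitochondrial genes removed. The IGF2R interaction with sgOGDHL_1 was -0.25 and -0.29 with the scalings and -0.0926 to 0.26 with 1 library left out. Over all tested genes, the calls for Enza with sgAAVS numbered 2796, and 6961 with median-of-ratios scaling. With the replicate number as a block in the fit of all libraries, 2 of 3 members were called for sgOGDHL_1 in DMSO (IGF2R adjusted p = 0.058) and the members called in the other 8 comparisons were as without it. At TPM near 0 (IGFBP1, IGFBP4, IGFBP6, IGFBP7) the unknown depth limits any statement.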
